A study of Mus musculus with 48 samples.

Results

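The 10 genes described here encode proteins that coat, build or empty the lipid droplet: the perilipins Plin2, Plin3 and Plin5, the droplet fusion protein Cideb, the lipases Pnpla2 and Lipe with the lipase inhibitor G0s2, the droplet enzyme Hsd17b13, and the fat storage-inducing transmembrane proteins Fitm1 and Fitm2. They were taken by name and role, with earlier results of these livers known, and all 10 were found among the 55416 genes of the count files. Their levels were followed by RNA-seq in whole liver of mice that carried a changed liver X receptor α (LXRα, encoded by Nr1h3), a nuclear receptor that senses oxysterols. The question put to these genes was how their transcripts differed between livers with a dominant negative receptor, livers without the receptor and their wild-type littermates.

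There were 48 livers in 6 groups of 8. DN:WT, DN:HET and DN:HOM were male C57BL/6J mice with no copy, 1 copy or 2 copies of a W441R substitution, knocked into Nr1h3 with CRISPR-Cas9 and descended from 1 founder. KO:WT, KO:HET and KO:HOM carried the normal receptor, 1 null allele or 2 null alleles of a line backcrossed to C57BL/6; the labels and methods name no sex for these mice, whose experiment the study describes as a repeat of that in the knock-in males. Both alleles were present in every tissue, so the livers also had changed receptors in cells other than hepatocytes. All mice, wild-type controls included, ate a western diet (42% of energy from fat, 0.2% cholesterol) for 8 weeks from about 8 weeks of age, and the livers were taken at about 16 weeks. The mice of each study were littermates from heterozygous crosses, and the 2 lines were kept at different institutions, so line and site cannot be told apart in any comparison across them.

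A lipid droplet is a core of triglyceride and cholesteryl ester inside a single layer of phospholipid. Perilipins cover that surface and restrain lipolysis, CIDE proteins move lipid from small droplets into larger ones, and FIT proteins act in the endoplasmic reticulum where droplets bud. In hepatocytes adipose triglyceride lipase, the product of Pnpla2, starts the breakdown of the stored triglyceride and is held back by G0s2, while hormone-sensitive lipase, the product of Lipe, cleaves diacylglycerol and cholesteryl ester.

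Before the results, 2 libraries have to be set apart, those labelled DN:WT animal 10 and DN:HOM animal 12. The study's own per-animal source data for 8 genes, none of them among the 10, hold 7 values for DN:WT, 8 for DN:HET and 7 for DN:HOM. The legend of the study's RNA-seq heatmap gives n = 8, so whether the study left livers out elsewhere cannot be told from these values. With the deposited counts scaled by size factors over the 46 livers without these 2, each of the other 22 knock-in libraries matched a value of its group for 7 of the 8 genes to within 0.01% (the other gene matched no library), and these 2 matched no value of their groups. The library labelled DN:HOM animal 12 matched a value of another group for 2 genes, as did DN:WT 5 and DN:HET 29. With size factors over all 48 livers 6 of the 8 genes matched no library, and the 22 libraries matched for 0 to 2 genes each. The 2 libraries were left out because they match no value of their groups and because their counts of Nr1h3 and of target genes go against their labels. The choice thus rests in part on expression in these data. Levels are given in CPM, counts scaled to library depth and by TMM, unless library size alone is named. TMM is a factor per library that keeps the typical gene level between livers. Markers of lipid-laden macrophages summed to 1621 CPM in the library labelled DN:WT animal 10, where the other DN:WT livers had 54.4 to 119. They summed to 60.4 in that labelled DN:HOM animal 12, where the other DN:HOM livers had 986 to 1496. For Fitm1, G0s2, Lipe and Fitm2, too, each lay within the range of the other homozygous or wild-type group, so leaving them out also sets these groups further apart. Whether their labels were exchanged was not tested, and they were not relabelled. Values below are for the remaining 46 livers, 7 in DN:WT and in DN:HOM, unless all 48 livers under their labels are named. The other groups kept their 8 livers.

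Reads on genes ran from 5332897 to 16961379 per liver with a median of 15879971, and 2 of the 48 livers had fewer than 10000000. Nr1h3 itself was at 81.1 to 109 CPM in KO:WT, 48.2 to 66.0 in KO:HET and 24.9 to 30.9 in KO:HOM, so the groups of the knockout study did not overlap. In the knock-in study, whose allele changes 1 residue, Nr1h3 was at 82.3 to 96.2 CPM in DN:WT, 84.6 to 99.2 in DN:HET and 68.9 to 77.5 in DN:HOM, while on library size alone the means of DN:WT and DN:HOM were 86.8 and 93.5. The hepatocyte markers Alb, Apoa1, Ttr, Tat, Cps1, Ass1 and Cyp2e1 had reads in every group and summed to between 30059 and 101807 CPM per liver. Skeletal muscle markers summed to at most 16.4 CPM, and the fat cell genes Adipoq, Retn and Lep were each at a mean of 0.41 CPM or less in the wild-type and homozygous groups. The other fat cell markers are given beside the results.

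All 10 genes are protein coding. In GRCm39 the annotation places Plin2 at chr4:86565912-86588459, Hsd17b13 at chr5:104103306-104125281, G0s2 at chr1:192949563-192956177 and Fitm2 at chr2:163308228-163314576, each on the minus strand. Lipe lies at chr7:25078880-25098135 on the minus strand and Pnpla2 at chr7:141034404-141040656 on the plus strand. Plin3 at chr17:56584218-56599873 and Plin5 at chr17:56418446-56424610, both on the minus strand, are 160 kb apart. Fitm1 at chr14:55812992-55814411 on the plus strand and Cideb at chr14:55991507-55996099 on the minus strand are 177 kb apart, with 16 tested genes between them. Exons of 5 of the genes overlap exons of a gene on the opposite strand whose reads were also counted, which for Cideb is Nop9 over 1136 bases, for Lipe 4732471J01Rik over 1326, for Fitm2 2310001K24Rik over 379, for Fitm1 Gm15932 over 197 and for G0s2 Lamb3 over 119. The counts used here were taken by strand, which splits the reads of these pairs. Reads on the counted strand were 6.97 to 8.62 times those on the other strand per liver, so the split may not be complete. How many reads crossed between the pairs was not tested.

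The promoter windows of 5 of the genes, from RefSeq on GRCm38.p6, are shown because Fitm1 and G0s2 fell most in DN:HOM and because Plin2, Plin5 and Hsd17b13 hold the letters AGGTCA, the core to which LXR and many other nuclear receptors bind. Each runs from 250 bases before the transcription start to 50 after it, 5′ to 3′ on the strand of the gene, with AGGTCA on either strand in capitals (TGACCT where it reads on the opposite strand). The windows are chr14:55575424-55575723 on the plus strand for Fitm1 and, on the minus strand, chr1:193273139-193273438 for G0s2, chr4:86670010-86670309 for Plin2, chr17:56117499-56117798 for Plin5 and chr5:103977339-103977638 for Hsd17b13.
Fitm1: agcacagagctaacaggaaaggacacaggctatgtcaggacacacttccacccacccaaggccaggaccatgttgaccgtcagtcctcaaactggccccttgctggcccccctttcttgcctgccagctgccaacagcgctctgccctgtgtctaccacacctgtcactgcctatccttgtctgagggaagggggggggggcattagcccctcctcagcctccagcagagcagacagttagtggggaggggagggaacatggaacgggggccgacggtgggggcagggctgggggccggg
G0s2: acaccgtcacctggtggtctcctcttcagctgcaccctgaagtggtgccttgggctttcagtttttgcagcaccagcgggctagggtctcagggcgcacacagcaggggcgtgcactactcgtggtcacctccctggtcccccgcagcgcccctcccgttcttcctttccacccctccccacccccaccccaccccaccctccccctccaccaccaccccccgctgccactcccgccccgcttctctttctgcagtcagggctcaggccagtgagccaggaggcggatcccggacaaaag
Plin2: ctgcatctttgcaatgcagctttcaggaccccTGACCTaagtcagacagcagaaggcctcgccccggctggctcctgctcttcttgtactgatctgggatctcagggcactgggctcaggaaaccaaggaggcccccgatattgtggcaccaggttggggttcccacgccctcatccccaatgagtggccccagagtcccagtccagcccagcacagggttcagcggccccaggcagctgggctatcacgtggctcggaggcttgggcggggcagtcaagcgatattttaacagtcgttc
Plin5: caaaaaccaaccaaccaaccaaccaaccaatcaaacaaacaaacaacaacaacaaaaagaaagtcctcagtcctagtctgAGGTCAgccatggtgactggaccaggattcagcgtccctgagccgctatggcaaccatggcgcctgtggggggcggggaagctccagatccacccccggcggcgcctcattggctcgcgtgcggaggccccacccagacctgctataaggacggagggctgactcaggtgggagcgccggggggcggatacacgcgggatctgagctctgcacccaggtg
Hsd17b13: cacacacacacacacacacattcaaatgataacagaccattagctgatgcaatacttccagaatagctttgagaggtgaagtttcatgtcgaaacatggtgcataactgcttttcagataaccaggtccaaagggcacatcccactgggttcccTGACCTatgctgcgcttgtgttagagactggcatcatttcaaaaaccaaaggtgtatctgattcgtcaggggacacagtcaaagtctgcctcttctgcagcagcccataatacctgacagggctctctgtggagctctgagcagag

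The core starts 218 bases before the start of Plin2 and 96 before that of Hsd17b13, both on the opposite strand, and 170 before that of Plin5 on the same strand. A second RefSeq start of Plin5, whose window is not printed, has AGGTCA 13 bases after it on the same strand and GGGTCA 160 before it on the opposite strand. AGGTCA on either strand is in 16.3% of the 32851 promoter windows of that length and GGGTCA in 13.7%, and 5 of the 10 genes (these 3, Lipe and Cideb) had at least 1 of them. The spaced pair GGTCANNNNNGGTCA, with the spacing typical of LXR elements, was in 0.0761% of all windows and in none of the 10 genes, which says only that these letters are not in these windows. The 12 windows of the 10 genes had a median GC content of 60.8%, against 52.7% over all windows.

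Levels can be ordered between genes only per length, here as RPKM (mean ± SD over livers). These are reads scaled to library depth, by TMM and to the length of the canonical transcript. In DN:WT (n = 7) the order was led by Plin2 at 422 ± 63.8, followed by Hsd17b13 at 297 ± 42.6 and Cideb at 179 ± 12.4. G0s2 at 119 ± 56.6 and Fitm1 at 69.9 ± 6.79 came next, then Pnpla2 at 24.4 ± 2.63, Plin5 at 19.1 ± 4.35, Fitm2 at 19 ± 2.81, Plin3 at 14.2 ± 0.984 and Lipe last at 6.11 ± 1.33. Cideb and G0s2, G0s2 and Fitm1, Pnpla2 and Plin5, and Plin5 and Fitm2 were neighbours whose mean ± SD ranges overlapped.

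The order in DN:HOM (n = 7) was a different one. Hsd17b13 led at 422 ± 37.6 RPKM, above Plin2 at 229 ± 30.9 in 7 of 7 livers, with Cideb next at 112 ± 9.11. Pnpla2 at 26.4 ± 2.46 and Plin3 at 21.1 ± 3.0 stood above G0s2 at 20.3 ± 7.0 and Fitm1 at 13.4 ± 3.36, and from Pnpla2 down to Plin5 at 12.2 ± 1.53 each neighbour's range overlapped the next. Fitm2 at 8.87 ± 1.37 and Lipe at 2.61 ± 0.493 were the lowest. In KO:WT, KO:HET and KO:HOM (n = 8 each) Hsd17b13 also led, at 321 ± 77.2, 320.4 ± 65.6 and 356 ± 63.2 RPKM, with Plin2 next at 287 ± 115, 252 ± 50 and 243 ± 53.3, ranges that overlapped in each group, and Lipe was last in all of them. The order depends on the length used: per kilobase of all annotated exons, DN:WT was led by Hsd17b13 at 180 ± 25.9 and Cideb at 149 ± 10.4, with Plin2 at 113 ± 17. With all 48 livers Plin2 (404 ± 77.3) and Hsd17b13 (317 ± 68.4) still led DN:WT and Hsd17b13 (411 ± 46.8) and Plin2 (261 ± 94.4) DN:HOM, but G0s2 in DN:HOM was at 32.1 ± 33.8, above Pnpla2 at 25.6 ± 3.15.

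**Figure D1:**
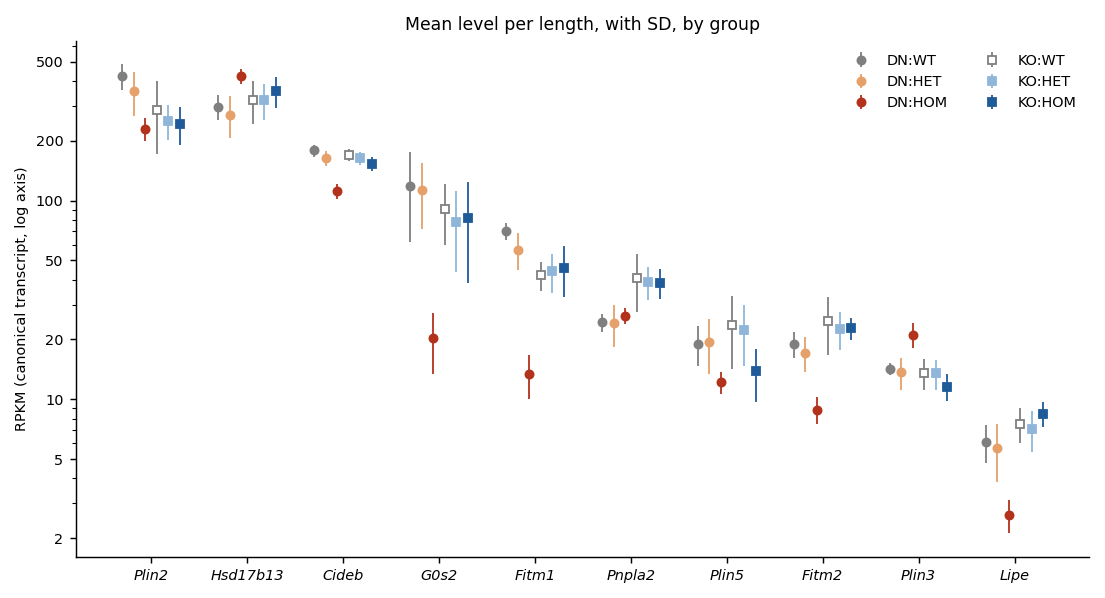
Level per length of the 10 genes in each group, as mean ± SD RPKM of the canonical transcript over the livers of the 46 on a log axis. Plin2 leads in DN:WT at 422, Hsd17b13 leads in DN:HOM at 422, and Lipe is the lowest gene in every group.

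From here on levels are CPM scaled by TMM, as were the CPM and RPKM above. On library size alone the mean of Plin2 was 820 CPM in DN:WT and 603 in DN:HOM, where scaled by TMM it was 865 and 470. A difference is a log2 fold change with its standard error from an edgeR quasi-likelihood fit over 15711 genes. A gene was called at an adjusted p (Benjamini-Hochberg over all genes tested) under 0.05. All 10 genes passed the filter on low counts. The least abundant, Lipe, had 97 to 643 reads per liver.

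Most of these transcripts were lower in livers homozygous for the dominant negative receptor. Of the 10 genes 7 were lower and 2 higher in DN:HOM than in DN:WT, where 59.1% of all genes tested were called, 29.1% higher and 30% lower. The median log2 fold change of the 10 was -0.78, beside -0.01 over all genes. For 8 of the 10 every DN:HOM liver lay on one side of every DN:WT liver, as for 33.3% of all genes; with all 48 livers this held for 0 of the 10, against 0.121%. Of all genes 4579 were higher and 4713 lower on the TMM scale, but 9283 higher and 1738 lower by library size alone, on which the median gene stood at 0.42 and 70.1% of genes were called (59.1% higher, 11.1% lower; of the 10 genes 3 higher and 6 lower), so each direction below is relative to the typical gene of these livers. DESeq2 called the same number of the 10, 9, and edgeR on all 48 livers called 8 (2 higher, 6 lower), against 48% of all genes (23% higher, 25% lower).

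The perilipins went in different directions. Plin2, the perilipin that coats most droplets of hepatocytes and is stabilised by the lipid it covers, was at 656, 843 and 1029 CPM (lowest, median and highest) in DN:WT and at 397, 446 and 564 in DN:HOM. All 7 DN:HOM livers lay below all 7 DN:WT livers. Plin2 was 1.84-fold lower (-0.88 ± 0.18 log2, edgeR adjusted p = 4.3e-05), and with all 48 livers -0.64 ± 0.19 (0.0053).

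Plin3, a cytosolic perilipin that binds nascent droplets in most cell types, was at 50.7, 56.0 and 62.0 CPM in DN:WT and at 68.3, 81.3 and 105 in DN:HOM. Here every DN:HOM liver was above every DN:WT liver. Plin3 was 1.49-fold higher (0.57 ± 0.12 log2, edgeR adjusted p = 4.9e-05; all 48 livers 0.44 ± 0.12, 0.0025).

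Plin5, the perilipin of oxidative tissues that links droplets to mitochondria, was at 34.1, 41.3 and 60.9 CPM in DN:WT and at 22.7, 27.6 and 33 in DN:HOM. The groups were adjacent without overlap. Plin5 was 1.56-fold lower (-0.65 ± 0.22 log2, edgeR adjusted p = 0.0096), a call that was lost with all 48 livers (-0.43, 0.098) and by library size alone (-0.21, 0.36).

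Cideb, a protein of hepatocyte droplets that also acts in the lipidation of very low density lipoprotein, had a narrow spread, with 215, 254 and 271 CPM in DN:WT and 140.0, 155 and 174 in DN:HOM. No liver of either group reached into the other. It was 1.60-fold lower (-0.68 ± 0.07 log2, edgeR adjusted p = 5.3e-12; all 48 livers -0.51 ± 0.09, 4.5e-05).

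Hsd17b13, a hydroxysteroid dehydrogenase family member bound to hepatocyte droplets, was at 316, 380.4 and 485 CPM in DN:WT and at 482, 538 and 630.3 in DN:HOM. Only the lowest DN:HOM liver reached the highest DN:WT liver. It was 1.42-fold higher (0.51 ± 0.14 log2, edgeR adjusted p = 0.0017; all 48 livers 0.37 ± 0.14, 0.028).

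G0s2, the inhibitor of adipose triglyceride lipase, fell most. Its levels were 101, 170.0 and 392 CPM in DN:WT and 23, 31.7 and 58.4 in DN:HOM. The groups were well apart, although G0s2 also had the widest spread of the 10 genes in DN:WT, with a coefficient of variation of 47.7% against 6.93% for Plin3 and 6.96% for Cideb. G0s2 was 5.84-fold lower (-2.55 ± 0.34 log2, edgeR adjusted p = 1.8e-08; all 48 livers -1.75 ± 0.40, 0.00054).

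Pnpla2, which encodes the lipase that G0s2 holds back, was at 41.2, 49.6 and 58.3 CPM in DN:WT and at 46.9, 55.9 and 62.0 in DN:HOM. The groups overlapped over most of their range. The difference was 0.12 ± 0.15 log2, with a 95% interval from -0.18 to 0.42 (edgeR adjusted p = 0.52; all 48 livers 0.11, 0.56). By library size alone it was 0.54 (0.0013), on a scale where the median gene was at 0.42.

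Lipe was at 17.1, 22.8 and 31.6 CPM in DN:WT and at 6.68, 10.4 and 12.9 in DN:HOM. Every DN:HOM liver was below every DN:WT liver. Lipe was 2.34-fold lower (-1.23 ± 0.17 log2, edgeR adjusted p = 2.7e-08; all 48 livers -0.96 ± 0.20, 0.00019).

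Fitm1, the FIT protein best known from muscle, was at 61.4, 75.5 and 83.0 CPM in DN:WT and at 7.90, 14.7 and 18.6 in DN:HOM. The lowest DN:WT liver was well above the highest DN:HOM liver, and Fitm1 was 5.24-fold lower (-2.39 ± 0.17 log2, edgeR adjusted p = 1.6e-15; all 48 livers -1.72 ± 0.28, 2.9e-05). Of the skeletal muscle markers, 1 of 8 passed the low-count filter and it was not called, at 0.08.

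Fitm2, the more widely expressed FIT protein, was at 61.8, 75.5 and 92.7 CPM in DN:WT and at 28.6, 33.9 and 43.1 in DN:HOM. The groups did not overlap, and Fitm2 was 2.14-fold lower (-1.10 ± 0.16 log2, edgeR adjusted p = 9.6e-08; all 48 livers -0.78 ± 0.19, 0.0011).

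**Figure D2:**
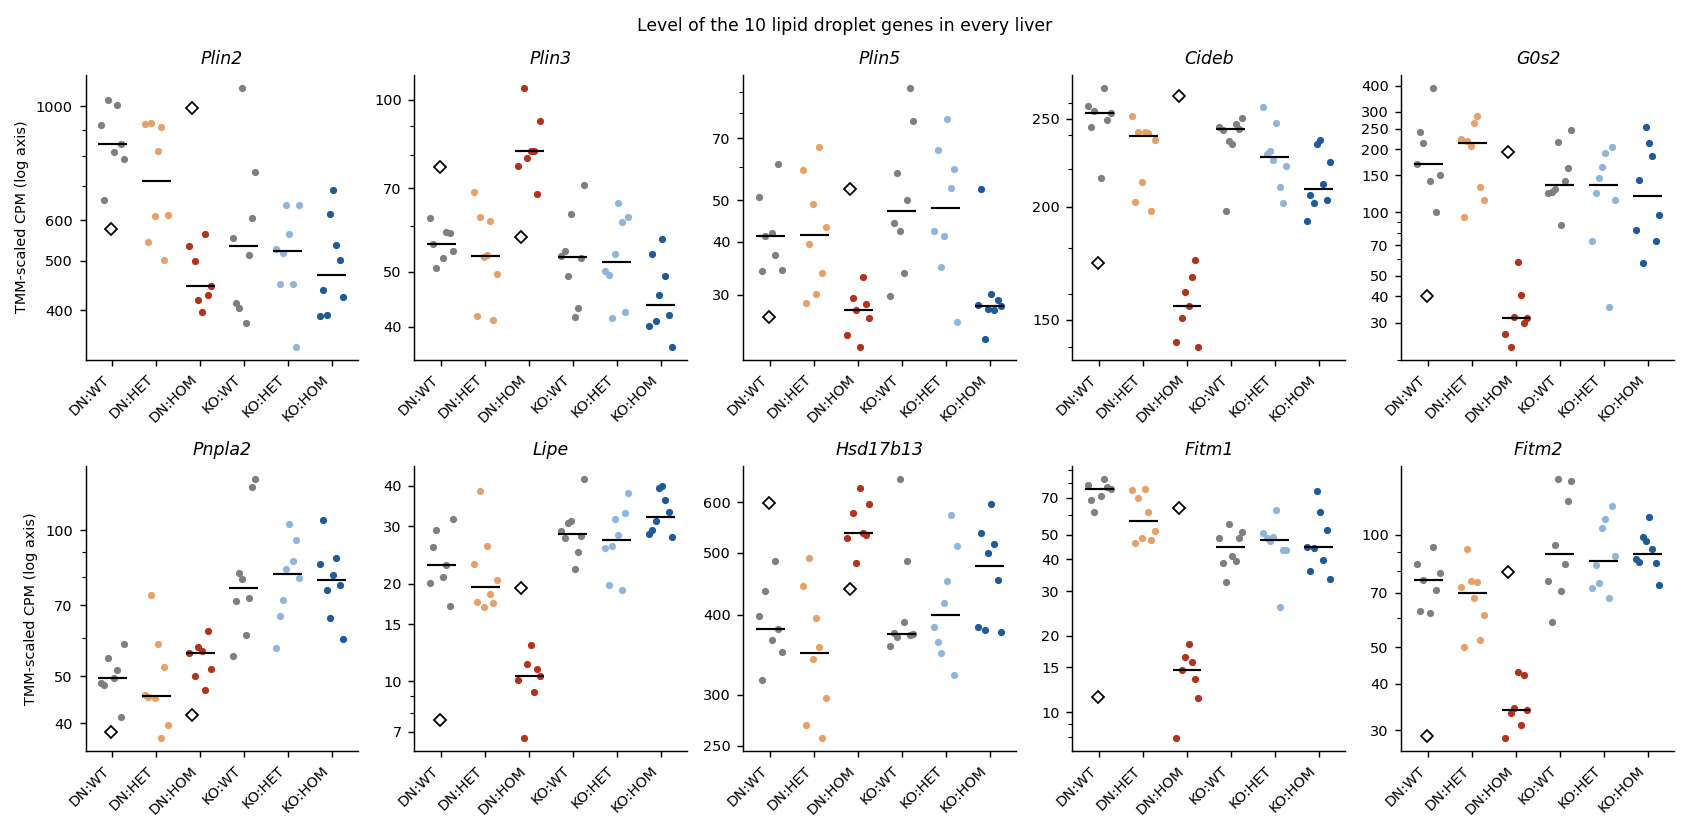
TMM-scaled CPM of the 10 genes in every liver on log axes, by group. Points are livers, black lines the medians of the 46-liver groups and open diamonds the libraries labelled DN:WT animal 10 and DN:HOM animal 12. The DN:HOM points lie below the DN:WT points for Plin2, Plin5, Cideb, G0s2, Lipe, Fitm1 and Fitm2 and above them for Plin3.

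Markers of other cells moved with this comparison. In DN:HOM 7 of 7 hepatocyte markers were lower, with a sum of 63055 to 79335 CPM in DN:WT and 30059 to 41829 in DN:HOM, and 5 of those 7 were lower by library size alone. Of 7 markers of lipid-laden macrophages 7 were higher, with sums of 54.4 to 119 and 986 to 1496 CPM, and the macrophage markers, of which 5 were higher and 3 lower, summed to 137 to 253 and 730 to 1209. Stellate cell markers were higher for 6 of 8, from 136 to 177 CPM in DN:WT to 503 to 682 in DN:HOM, and 4 of 4 cholangiocyte markers, 3 of 3 neutrophil markers tested and 3 of 5 T cell markers were higher. Of 5 endothelial markers 3 were lower and 1 higher (median -0.47), but 1 and 1 by library size alone. Of the 6 fat cell markers 3 were tested and 1 was lower, Cfd, which encodes complement factor D, at a mean of 135 CPM in DN:WT and 0.158 in DN:HOM, and the list summed to 112 to 266 and 20.3 to 25.3 CPM. With all 48 livers 6 of 7 hepatocyte and 7 of 7 lipid-laden macrophage markers, 5 of 8 stellate cell markers, 1 of 5 T cell markers and Cfd were called in these directions, as were all cholangiocyte and tested neutrophil markers and the 3 lower endothelial markers, with 4 macrophage markers higher and 3 lower. Fewer hepatocytes and less RNA per hepatocyte cannot be told apart in whole liver, and the part of these shifts in the levels of the 10 genes was not tested.

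Ratios of reads between a pair of genes in the same liver do not depend on how libraries are scaled, and are given as a description. The ratio of G0s2 to Pnpla2, the inhibitor to its lipase, was 2.45 to 7.62 in DN:WT with a median of 3.51, and 0.458 to 1.03 in DN:HOM with a median of 0.552. The ratio of Plin3 to Plin2 was 0.0493 to 0.0853 in DN:WT and 0.143 to 0.210 in DN:HOM. Neither ratio overlapped between these groups, and the directions were opposite. The share of single genes without overlap was 33.3%; that of all gene pairs was not computed. The library labelled DN:WT animal 10 was at 1.05 and 0.132 for these ratios and that labelled DN:HOM animal 12 at 4.65 and 0.0580, so with all 48 livers the groups overlapped for both. Fitm1 to Fitm2 was 0.813 to 1.15 in DN:WT and 0.277 to 0.508 in DN:HOM, and Lipe to Pnpla2 0.414 to 0.542 and 0.133 to 0.229. Hsd17b13 to Cideb was 1.29 to 1.79 in DN:WT and 3.0 to 4.26 in DN:HOM. The library labelled DN:WT animal 10 was at 0.394, 0.198 and 3.45 for these 3 ratios and that labelled DN:HOM animal 12 at 0.802, 0.465 and 1.66, so that here too the groups overlapped with all 48 livers. By contrast Plin5 to Plin2 overlapped, at 0.0369 to 0.0722 in DN:WT and 0.0452 to 0.0665 in DN:HOM.

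**Figure D3:**
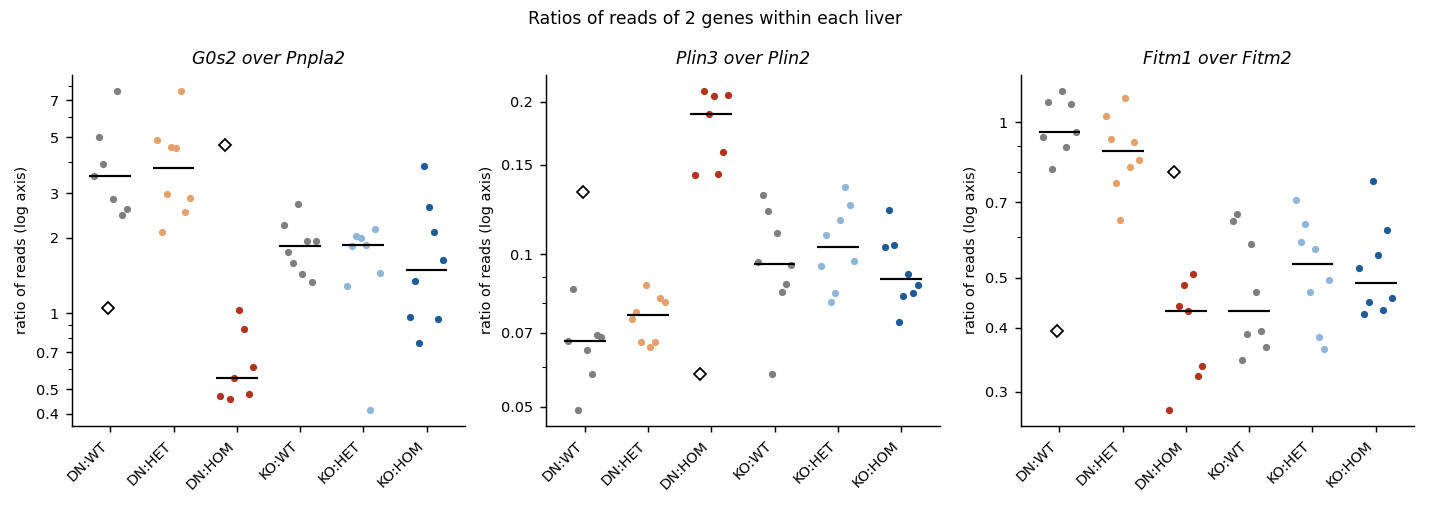
Ratios of the reads of G0s2 to Pnpla2, Plin3 to Plin2 and Fitm1 to Fitm2 within each liver on log axes, with black lines at the group medians of the 46 livers and open diamonds for the libraries left out. The median ratio of G0s2 to Pnpla2 is 3.51 in DN:WT, 0.552 in DN:HOM, 1.85 in KO:WT and 1.49 in KO:HOM.

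A single copy of the dominant negative allele gave no call among the 10 genes. In DN:HET against DN:WT edgeR called 0 of the 10, against 2.3% of all genes. At an unadjusted p under 0.05 there was 1 of the 10 by edgeR (Cideb), against 13.3% of all genes. DESeq2 called 0 with 0 at that limit. With all 48 livers edgeR also called 0, against 0.25% of all genes. The log2 fold changes ran from -0.31 to 0.02 with 9 of 10 below 0, as were 8335 of the 15711 genes tested, and with all 48 livers from -0.22 to 0.10 with 6 of 10 below 0. The 95% intervals of the difference were -0.62 to 0.00644 for Fitm1, -0.25 to -0.00141 for Cideb, -0.59 to 0.10 for Plin2 and -0.69 to 0.56 for G0s2. The count over all genes, 361, rested on single livers. It was 21 without DN:HET animal 22, 29 without DN:HET animal 4, 103 to 238 without any 1 of DN:WT 2, 5, 7, 21 and 28, and 562 to 629 without any 1 of DN:HET 1, 8, 14 and 20.

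The 8 DN:HET livers differed among themselves. Plin2 was at 502, 716 and 929.5 CPM (lowest, median and highest), G0s2 at 95.3, 213 and 286, and Fitm1 at 46.4, 56.4 and 75.5. Animals 4 and 22 were each among the lowest 3 of the 8 for 9 of the 10 genes. The same 2 livers had macrophage marker sums of 1012 and 1133 CPM and hepatocyte marker sums of 46584 and 44903, where the other 6 livers had 149 to 424 and 57614 to 75877. In the same comparison 3 of 8 macrophage, 1 of 7 lipid-laden macrophage and 4 of 5 T cell markers were higher in DN:HET (0, 0 and 2 with all 48 livers). Whether these markers account for the low levels was not tested.

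Of the 10 genes only Plin5 passed the test in livers without the receptor. In KO:HOM against KO:WT edgeR called 1 of the 10, Plin5, against 19.4% of all genes (11.5% higher, 7.87% lower), and DESeq2 also called 1. At an unadjusted p under 0.05 there were 3 of the 10 by edgeR (Cideb, Plin3 and Plin5), against 31.6% of all genes, and 2 by DESeq2. With all 48 livers in the fit edgeR called 1, against 12.9%. Groups without overlap were found for 0 of the 10, against 2.49%. Plin5 was at 29.8, 47.1 and 92.0 CPM in KO:WT and at 23.7, 28.3 and 53.3 in KO:HOM. All KO:HOM livers but animal 11, the highest, lay between 23.7 and 30.2, where only 1 of the 8 KO:WT livers was, so the groups overlapped. Plin5 was 1.71-fold lower (-0.78 ± 0.20 log2, edgeR adjusted p = 0.0049; all 48 livers -0.77 ± 0.22, 0.013).

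The other coat genes did not pass the test in KO:HOM. Cideb was at 198, 243 and 251 CPM in KO:WT and 193, 209 and 237 in KO:HOM, a difference of -0.15 ± 0.06 log2 (edgeR adjusted p = 0.079). Without KO:WT animal 14, the lowest KO:WT liver for this gene, Cideb was called, at -0.17 (0.037). Plin3 was at 41.6 to 70.9 CPM in KO:WT and 36.9 to 57.1 in KO:HOM (-0.23 ± 0.11 log2, adjusted p = 0.15 in edgeR). Plin2 was at 377, 533 and 1088 CPM in KO:WT, the widest range of this gene in any group, and at 389, 469.7 and 688 in KO:HOM, with an interval of -0.57 to 0.10 for the difference. Hsd17b13 was at 358 to 652 CPM and 376 to 596, with an interval of -0.11 to 0.41.

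Among the lipase and FIT genes of the knockout study the groups also overlapped throughout. G0s2 was at 87.3, 135 and 247 CPM in KO:WT and 57.5, 119 and 254 in KO:HOM, with an interval from -0.76 to 0.45 log2. Pnpla2 was at 55.0 to 127 CPM and 59.8 to 105 (interval -0.35 to 0.21), and Lipe at 22.2 to 42.1 and 27.9 to 39.9 (-0.13 to 0.47). Fitm1 was at 32.5, 44.8 and 54.9 CPM in KO:WT and 33.5, 44.5 and 74.0 in KO:HOM (-0.18 to 0.43). Fitm2 was at 58.5 to 141 CPM and 73.3 to 111 (-0.41 to 0.18).

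In KO:HET against KO:WT edgeR called 0 of the 10 genes, against 0.0191% of all genes. At an unadjusted p under 0.05 there were 0 of the 10, against 6.24% of all genes. DESeq2 gave the same counts of 0 and 0. The log2 fold changes ran from -0.22 for G0s2 to 0.06 for Fitm1. KO:HET held single low livers, with G0s2 from 35.6 to 206 CPM and Fitm1 from 25.9 to 62.6.

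Markers of other cells also moved in the knockout livers. In KO:HOM 5 of 5 T cell markers were higher, also with all 48 livers in the fit, with a median of 2.48 log2 and sums of 1.87 to 4.77 CPM in KO:WT and 5.21 to 22.1 in KO:HOM. Of the macrophage markers 4 were higher and 2 lower (4 and 1 with all 48), 4 of 8 stellate cell markers were higher (1) and so were 2 of 3 neutrophil markers tested (0), as was 1 of 5 endothelial markers (1), while of the fat cell markers Fabp4 was lower, at -0.67. Here 5 of 7 hepatocyte markers were lower (75071 to 101807 CPM in KO:WT, 54792 to 78140 in KO:HOM; 3 of 7 by library size alone, 2 with all 48 livers in the fit) and 4 of 7 lipid-laden macrophage markers were higher (37.7 to 137 and 84.7 to 291 CPM; 1 with all 48). Their part in the level of Plin5 was not tested.

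The 2 homozygous effects were compared in 1 fit, as the DN:HOM against DN:WT difference minus the KO:HOM against KO:WT difference. Here 7 of the 10 genes were called, 1 higher and 6 lower, against 34.7% of all genes (16.5% higher, 18.3% lower), and DESeq2 called 7. With all 48 livers edgeR called 3, Fitm1, Lipe and Plin3, against 10.5%. Fitm1 differed most, by -2.51 ± 0.23 log2 (edgeR adjusted p = 2.3e-11; all 48 livers -1.85, 0.0042), then G0s2 by -2.39 ± 0.45 (4e-05; -1.61, 0.051). Lipe differed by -1.40 ± 0.22 (3.6e-06; -1.14, 0.0091) and Fitm2 by -0.98 ± 0.21 (0.00033; -0.67, 0.094). All 4 had the more negative value in the dominant negative line, and of them Fitm1 and Lipe were also called with all 48 livers. Cell markers also differed in this contrast (called with all 48 livers in brackets). All 7 lipid-laden macrophage markers (1), 4 of 4 cholangiocyte (3), 3 of 3 neutrophil (0) and 3 of 8 stellate cell markers (0) had the more positive value in the dominant negative line, and 4 of 7 hepatocyte markers the more negative (0). Of 8 macrophage markers 1 was more positive and 3 more negative (0), of 5 endothelial markers 1 and 2 (1, more negative), and of 3 fat cell markers tested 1 and 1 (0), while 0 of 5 T cell markers were called (0). Their part in the differences of the 10 genes was not tested.

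Of the coat genes, Cideb differed by -0.53 ± 0.09 log2 (edgeR adjusted p = 7.7e-06; all 48 livers -0.37, 0.052) and Plin3 by 0.80 ± 0.16 (0.00012; 0.66, 0.012). Plin2 differed by -0.64 ± 0.24 (0.035; -0.41, 0.32), a call lost in 8 of the 46 fits that leave out 1 liver, those without DN:HOM 18, DN:WT 7, KO:WT 5, 14, 31 or 32, and KO:HOM 20 or 22 (-0.57 to -0.62, adjusted p 0.050 to 0.061). Plin5, the gene called in both lines, differed by 0.13 with an interval from -0.47 to 0.73. Hsd17b13 differed by 0.36 (-0.02 to 0.74) and Pnpla2 by 0.19 (-0.22 to 0.60). By library size alone the median gene stood at 0.31, and Hsd17b13 (0.68, 0.0026) and Pnpla2 (0.49, 0.045) were then called and Plin2 was not (-0.32, 0.25).

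**Figure D4:**
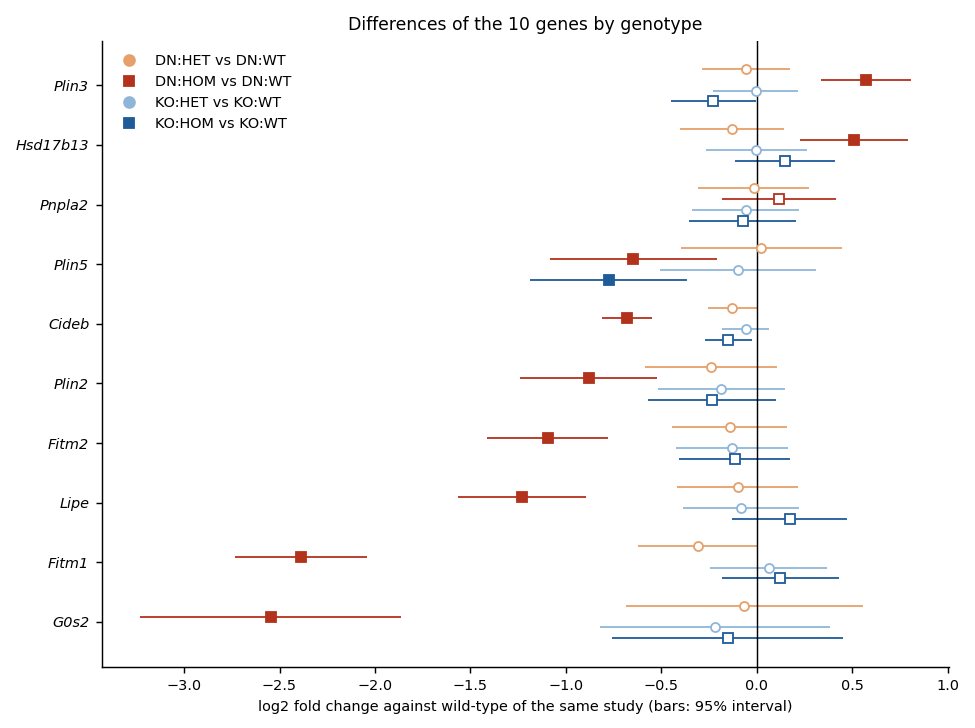
Log2 fold changes of the 10 genes in each comparison of the 46 livers, with 95% intervals; filled points have an edgeR adjusted p under 0.05. G0s2 and Fitm1 reach -2.55 and -2.39 in DN:HOM, and of the 10 genes only Plin5 is filled in KO:HOM.

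Since the lines were kept apart, the wild-type groups were also set against each other. Of the 10 genes 3 were called in DN:WT against KO:WT, 2 higher and 1 lower, against 12% of all genes (5.54% higher, 6.47% lower), and 1 with all 48 livers, against 12.7%. Here line, site and all that goes with them cannot be told apart. Of the cell markers 4 of 7 of hepatocytes were lower in DN:WT (median -0.58; 3 with all 48 livers) and 1 of 5 endothelial markers was lower (0), and with all 48 livers 3 of 7 lipid-laden macrophage, 2 of 3 neutrophil and 1 of 4 cholangiocyte markers were higher, where 0 of each were called in the 46. Their part in these differences was not tested. Pnpla2 was lower in DN:WT (41.2 to 58.3 CPM, KO:WT 55.0 to 127; -0.74 ± 0.15 log2, edgeR adjusted p = 0.00043; all 48 livers -0.77, 0.00019). Fitm1 was higher in DN:WT, 61.4 to 83.0 CPM against 32.5 to 54.9 without overlap, as for 1.76% of all genes (0.73 ± 0.16, 0.0011; all 48 livers 0.58, 0.16). Plin2 was also higher (0.56 ± 0.17, 0.026; all 48 livers 0.50, 0.069), but the call was lost without any 1 of DN:WT 7, DN:WT 17, KO:WT 5, KO:WT 14 and KO:WT 31 (0.49 to 0.52, adjusted p 0.051 to 0.059). Without KO:WT 5 Fitm2 was called as lower, at -0.47 (0.029), where with it the value was -0.39 (0.087). The DN:HOM levels of Fitm1 were below both wild-type groups. The ratio of G0s2 to Pnpla2 in KO:WT, 1.33 to 2.71, was above every DN:HOM liver and overlapped DN:WT.

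Beyond groups, single livers stood high or low for many of the 10 genes at once. KO:HOM animal 22 was among the highest 2 of its group for 9 genes and KO:WT animal 34 likewise for 9, while KO:WT animal 31 was among the lowest 2 for 8. In DN:WT animal 17 was among the highest 2 for 7 genes and animal 5 among the lowest 2 for 7. These ranks share the scaling of each library.

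The wider droplet and lipid genes give the background to these values. Their counts are to be read against the shares of all genes called, 59.1% in DN:HOM (29.1% higher, 30% lower), 19.4% in KO:HOM (11.5% higher, 7.87% lower), 2.3% in DN:HET and 0.0191% in KO:HET. Of 15 other droplet proteins tested 12 were called in DN:HOM, 11 lower and 1 higher with a median of -0.39, led by Cidea (-7.03), a CIDE protein of fatty liver, its relative Cidec (-2.13) and the acyl-CoA synthetase Acsl3 (-1.31), while Ldaf1, a partner of seipin at new droplets, was higher at 1.17. With all 48 livers the counts were the same, and by library size alone the split was 7 lower and 5 higher. In KO:HOM 3 of the 15 were called, all lower, Cidea (-2.19), Acsl3 (-0.59) and Spart (-0.43), and 1 with all 48 livers. Plin1, the perilipin of fat cells, had a mean of at most 0.31 CPM in every group and was not tested.

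Of 15 other lipases and cofactors 13 were called in DN:HOM, 12 lower and 1 higher with a median of -0.55, among them Pnpla3 (-4.67), Ces3b (-3.65) and the monoacylglycerol lipase Mgll (-2.55). By library size alone 7 were lower and 2 higher, and with all 48 livers 12 and 1. In KO:HOM 7 were called (4 with all 48 livers), 5 lower and 2 higher, with Pnpla3 again lowest at -2.97 and the carboxylesterases Ces1g (1.02) and Ces2a (0.74) higher. Of 11 genes of neutral lipid synthesis 9 were called in DN:HOM, 8 lower and 1 higher with a median of -1.07, with Mogat1 at -4.28, the acyltransferase Gpam at -2.30 and the cholesterol acyltransferase Soat1 at 2.01 (6 lower and 2 higher by library size alone, 8 and 1 with all 48 livers). In KO:HOM 5 of the 11 were called, Soat1 higher at 1.58 and 4 lower, including Lpin1 at -1.85 and Gpat4 at -0.86. With all 48 livers in the fit 4 were called, 1 higher and 3 lower.

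PPARα, the receptor for fatty acids, is a known regulator of several droplet genes, and 13 of 18 of its targets were lower in DN:HOM with none higher and a median of -0.75 (11 lower and none higher by library size alone, 12 lower with all 48 livers). Cyp4a14 (-3.95), Cyp4a10 (-3.49) and Acot1 (-2.49) fell most among them. In KO:HOM 3 of the 18 were lower (2 with all 48 livers), Fabp1 (-1.05) and, both at -1.0, Cyp4a31 and Acot1. The genes of these 4 lists were chosen with results of these livers known, so their counts are a description. In DN:HET and KO:HET 0 genes of these 4 lists were called by edgeR.

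**Figure D5:**
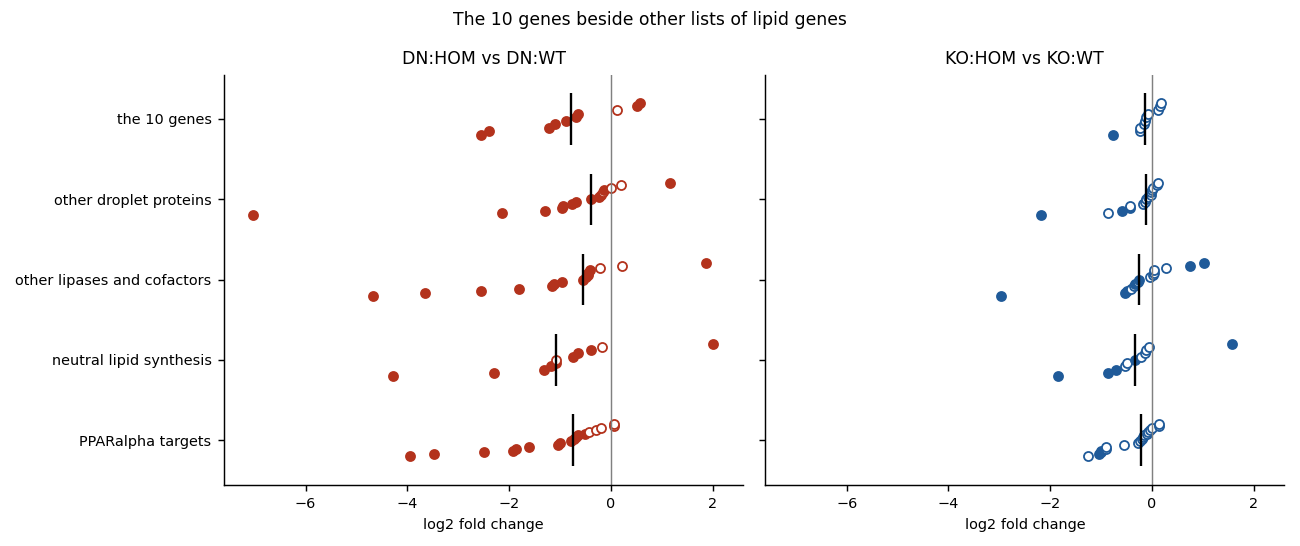
Log2 fold changes of the genes in the droplet, lipase, neutral lipid synthesis and PPARα target lists beside the 10 genes; filled points have an edgeR adjusted p under 0.05 and black bars are medians. The medians in DN:HOM are -0.78 for the 10 genes, -0.39, -0.55, -1.07 and -0.75 for the other lists.

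The genes whose pattern over the 46 livers was most like each of the 9 called genes were found by the root mean square difference of centred log2 CPM, which is smaller for a closer match but also for a gene that varies little. Cideb, which varied least (root mean square 0.24 about its mean), was closest to Fkbp8 at 0.09 and Psmd12 at 0.10. Fitm2 was closest to Pex11a (0.17) and Lpgat1 (0.19), Plin3 to Otud7b (0.17) and Cttn (0.22), and Hsd17b13 to Idh2 and Anxa7 (both 0.19). Plin2 was closest to Tkt (0.24) and Cs (0.25), Lipe to Sec22c and Mfn2 (both 0.26), and Plin5 to Pole4 (0.26) and Spart (0.29). Fitm1 was closest to Tlcd2 (0.32) and Paqr9 (0.33). G0s2, which varied most (1.01), was closest to Acot11 and Fitm1 (both 0.53). As a share of the gene's own variation the nearest match ran from 0.31 for Fitm2 and 0.38 for Cideb to 0.58 for Hsd17b13, with G0s2 at 0.52. Fitm1 was the only 1 of the 10 genes among the nearest 2 of another.

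The genes that overlap 5 of the 10 on the opposite strand are listed because strand decides how their reads were split. In DN:HOM Nop9 was lower by -0.38 log2 where Cideb was at -0.68, Lamb3 by -1.65 where G0s2 was at -2.55, 4732471J01Rik by -1.42 where Lipe was at -1.23, Gm15932 by -0.91 where Fitm1 was at -2.39 and 2310001K24Rik by -1.75 where Fitm2 was at -1.10. Reads of these partners came to between 1.36% and 20.5% of the reads of the member they overlap. Counted without strand the DN:WT mean of Cideb was 23.2 CPM in place of 249.5, but each of the 60 calls on the 10 genes over 6 comparisons was the same.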

How the data were processed

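Whole-liver RNA was made into stranded messenger RNA libraries, and per the labels and the study's methods the authors mapped reads with STAR 2.5.0a to GRCm39 and deposited raw read counts per gene. Reads were taken from the column for the transcribed strand of this library type. Rows that name no gene (24.0% to 35.0% of reads without a gene) were left out. Groups came from the genotype labels. Counts of 46 livers were fitted as 6 group means in edgeR 4.0.16 (R 4.3.3) with filterByExpr, TMM and the quasi-likelihood test, Benjamini-Hochberg over all genes tested, adjusted p under 0.05; 95% intervals used the t distribution with the degrees of freedom of that test. The fit was tested on simulated data. Levels were planned as CPM on library size, and are given on TMM-scaled library sizes because the factors differed between genotypes, a change made after seeing the data; RPKM used canonical transcripts, also chosen then. Alternatives were all 48 livers, livers over 10000000 reads, DESeq2 1.42.0, upper-quartile scaling, no low-count filter, unstranded counts, each study alone, leaving out each liver, and library size alone (added later).

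The 10 genes and all lists were chosen with earlier results of these data known. Genes named besides them are Nr1h3, up to 3 called genes with the largest change per list and comparison, overlapping genes, and the 2 genes most like each called gene; Ldaf1, outside this rule, was named after its value was seen. 1 hepatocyte marker of the planned list is not reported here, for a reason that does not depend on its values. Each library is 1 animal, so p-values measure the spread between animals; the cohort of each animal within a line was not given in the sources used here.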

Additional observations from a re-analysis of the deposited data

Results flagged for a closer look

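A liver far from the rest of its group by Dixon's test was found 13 times in 80 tests over the 10 genes (all 48 livers by label, and DN:WT and DN:HOM again without the libraries left out), where chance gives about 1 in 20. The library labelled DN:HOM animal 12 was the highest of its group for Plin2 (992 CPM), Plin5 (53.2), Cideb (265), G0s2 (194), Fitm1 (63.9) and Fitm2 (79.6). The library labelled DN:WT animal 10 was the highest of its group for Plin3 (76.3 CPM) and the lowest for Fitm1 (11.4). Without these 2 libraries no DN:WT or DN:HOM liver stood apart by this test. The others were KO:HOM animal 11, highest for Plin5 (53.3 CPM), KO:WT animal 14, lowest for Cideb (198), KO:WT animal 23, highest for Hsd17b13 (652), KO:WT animal 34, highest for Lipe (42.1), and DN:HET animal 8, also highest for Lipe (38.5).

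The homozygous effects of the lines differed by the test of the difference itself for 7 genes (knock-in minus knockout, log2, edgeR adjusted p): Fitm1 by -2.51 (2.3e-11), G0s2 by -2.39 (4e-05), Lipe by -1.40 (3.6e-06), Fitm2 by -0.98 (0.00033), Plin3 by 0.80 (0.00012), Plin2 by -0.64 (0.035) and Cideb by -0.53 (7.7e-06). Line and site cannot be told apart in these differences.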

How the results depend on the processing

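The calls on the 10 genes in 6 comparisons (60 in all) were the same with DESeq2, with unstranded counts and without the livers under 10000000 reads. The setting that moved most was the use of all 48 livers by label, under which 7 calls were lost: the count of the 10 genes called fell to 3 for the difference of the homozygous effects and to 1 for DN:WT against KO:WT, and Plin5 was no longer called in DN:HOM against DN:WT. By library size alone, added after seeing the data, 3 calls were gained and 2 lost, and upper-quartile scaling and no low-count filter each lost 1, Plin2 in the difference of the homozygous effects (-0.59, edgeR adjusted p = 0.052, and -0.64, 0.058). Leaving out 1 liver at a time kept 2745 of the gene results, lost 13 and gained 2; the count called in KO:HOM against KO:WT was 1 to 2 across these fits. The cause was not tested beyond the setting itself. None of the called values was reversed under the alternatives run. Each study fitted alone gave the same call for 40 of 40 results; the comparisons across studies cannot be fitted that way. No paired analysis was possible because the replicate numbers name animals and the groups compared share fewer than 2 of them. Lipe had the fewest reads, 97 to 643 per liver, but its standard error in DN:HOM against DN:WT, 0.17, was below that of G0s2, 0.34.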
